A study of Mus musculus with 8 samples.

Results

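Neutrophil marker genes were followed through lung RNA of C57BL/6 mice, either wild type or DDAH1-transgenic, that had received PBS or an extract of house dust mites (HDM, the allergen). The 10 genes were the rows of the count table whose Entrez identifier maps to the calgranulins S100a8 and S100a9, the receptors Csf3r, Cxcr2 and Trem1, the granule genes Ngp, Camp, Mpo and Elane, and the stefin Stfa2l1, out of 23469 genes in all. They were chosen by their cell type and with results of these libraries known, that is, the differences of neutrophil genes between the groups, and 5 of them (S100a8, S100a9, Csf3r, Cxcr2 and Ngp) are on the study's list of genes that differ between the PBS-treated genotypes, while none is on its list for the HDM-treated genotypes. Their values are therefore given as a description for every comparison that involves a PBS group, and a test is given only between the HDM-treated genotypes. There were 4 groups, each a pool of lung RNA from 4 mice that was analyzed in 2 libraries, labelled WP (wild type, PBS), WH (wild type, HDM), TP (DDAH1-transgenic, PBS) and TH (DDAH1-transgenic, HDM). HDM was instilled at 100 µg in 50 µl PBS 3 times per week for 3 weeks, control mice received PBS alone, and lungs were harvested 24 h after the last challenge. The age of the mice and the promoter of the transgene are not given in the sources used here. Both libraries of a group hold the same mice, so every SD and p-value below covers technical spread and none of the variation between mice.

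Neutrophils are short-lived granulocytes that leave the bone marrow under the control of granulocyte colony-stimulating factor and CXC chemokines, and the lung holds many of them within its capillaries. Their granule proteins are made at set stages in the marrow. The primary granule enzymes myeloperoxidase and neutrophil elastase are transcribed in early precursors, the secondary granule proteins later, and the mature cell keeps mainly the RNA of calgranulins and surface receptors. In whole lung, a lower level of such a gene can come from fewer cells or from less RNA in each cell, and these cannot be told apart in these data.

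Total counts per library lay between 5694928 and 11929374, with the smallest library being replicate 1 of TH, and Rn45s, a ribosomal RNA precursor, took 8.58% to 21.8% of them. At this depth 3 counts, the limit that a count of 0 allows, correspond to 0.232 to 0.450 CPM (counts scaled to a library of 1000000 counts), and such limits cover counting error only. Ddah1 stood at 34.3 to 47.8 CPM in WP, 43.1 to 44.7 in WH, 53.8 to 76.98 in TP and 33.4 to 34.9 in TH. It did not pass the test between genotypes under PBS (log2 fold change 0.66 ± 0.26 SE, edgeR adjusted p = 0.358) or HDM (−0.32 ± 0.29, adjusted p = 0.637). Whether reads of the transgene fall in the counted region is not stated in the sources used here, so the genotype labels were used as given and every direction between genotypes rests on them. Xist, the X-inactivation RNA of female cells, stood at 11.3 to 20.8 CPM in the 4 PBS libraries and 2049 to 3042 CPM in the 4 HDM libraries, and the Y-linked Ddx3y at 58.7 to 69.0 CPM against 2 or 3 counts. Treatment and sex therefore cannot be told apart in any comparison of HDM with PBS.

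The 10 neutrophil marker genes were, by their sum, highest in PBS-treated wild type lungs. Other neutrophil genes did not all share this order. By the sign of the fitted difference, 42 of 68 tested were higher and 26 lower in WH than in WP. In TP, 54 of 68 were lower and 14 higher than in WP. Cd177 (given below), for example, was higher in WH and TH than in WP. For 7 of the 10 genes both WP libraries lay above all 6 other libraries, the exceptions being Stfa2l1, Mpo and Elane. Among all 15684 genes with at least 50 counts over the libraries, 4.57% had this pattern, and because the genes were chosen with such values in view nothing is read from the count. Summed over the 10 genes the level was 436 to 442 CPM in WP, 195 to 212 CPM in WH, 186 to 205 CPM in TP and 220 to 229 CPM in TH. Without the 2 receptors Csf3r and Cxcr2, which carried most of the counts, the sums were 145 and 176 CPM in WP, 33.1 and 32.5 CPM in WH, 30.3 and 15.4 CPM in TP, and 49.4 and 90.7 CPM in TH.

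**Figure D1:**
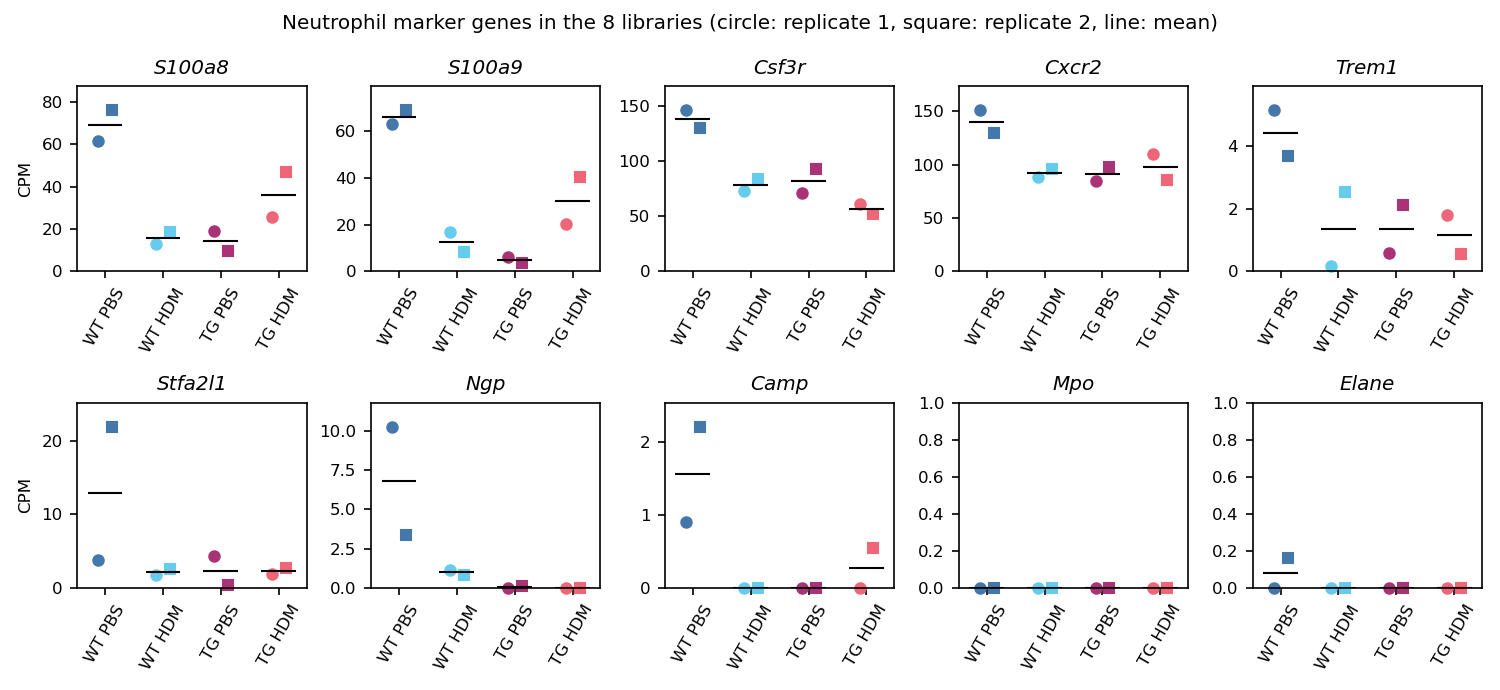
CPM of each neutrophil marker gene (y axis, linear, own scale per panel) in the 4 groups (x axis), with 1 point per library and a line at the mean of the 2 libraries. For S100a8 the WP libraries reach 61.7 and 76.2 CPM and the next highest library 46.8 CPM, while Mpo has no count in any library.

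S100a8 and S100a9 encode calcium-binding proteins that pair to form calprotectin, the most abundant protein of the neutrophil cytosol. The genes lie on chromosome 3 (GRCm38) at 90669071 to 90670034 and 90692630 to 90695721, with 22595 bases between them, and neither transcript shares a stretch of 50 bases with another gene. Their upstream regions are printed because both genes had the same order of groups by mean level. The 250 bases before the start (RefSeq, GRCm38.p6) are chr3:90668821-90669070 on the plus strand for S100a8 and chr3:90695722-90695971 on the minus strand for S100a9. Capitals mark matches on either strand to TTGCNNAA, a core of sites for C/EBP factors, or GAGGAAGT, a core of sites for PU.1, which are both regulators of granulocyte genes.
S100a8: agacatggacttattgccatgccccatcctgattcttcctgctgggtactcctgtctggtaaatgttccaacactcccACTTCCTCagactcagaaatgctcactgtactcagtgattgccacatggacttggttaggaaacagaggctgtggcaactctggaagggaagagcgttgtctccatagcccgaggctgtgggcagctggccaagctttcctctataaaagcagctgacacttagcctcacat
S100a9: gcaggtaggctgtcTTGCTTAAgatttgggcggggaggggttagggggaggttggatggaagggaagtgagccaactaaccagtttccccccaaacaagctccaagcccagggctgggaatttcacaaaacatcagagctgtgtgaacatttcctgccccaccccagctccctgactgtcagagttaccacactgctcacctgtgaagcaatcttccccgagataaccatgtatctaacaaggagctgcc
S100a8 held 1 match to GAGGAAGT, which begins 172 bases before the start, and S100a9 held 1 match to TTGCNNAA at 236 bases. Of the 32851 promoters of this length, 9.56% held TTGCNNAA and 2.44% held GAGGAAGT. Among the 10 neutrophil marker genes 2 held the first (S100a9 and Ngp) and 3 the second (S100a8, Mpo and Elane), and no promoter of these held both. A match is a description of the letters and not a binding site.

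S100a8 had 61.7 and 76.2 CPM in WP, 13.1 and 18.4 in WH, 19.1 and 9.41 in TP, and 25.5 and 46.8 in TH. WP was high, TH was intermediate in both libraries, and WH and TP overlapped. S100a9 had 63.0 and 68.8 CPM in WP, 17.0 and 8.24 in WH, 6.29 and 3.38 in TP, and 20.2 and 40.1 in TH. For S100a9 the 4 groups did not overlap, and the order from high to low was WP, TH, WH and TP. Relative to PBS-treated wild type, PBS-treated transgenic lungs had 4.86-fold lower S100a8 (log2 −2.28 ± 0.32 SE) and 13.6-fold lower S100a9 (−3.77 ± 0.34). HDM-treated wild type lungs had 4.39-fold lower S100a8 (−2.14 ± 0.28) and 5.21-fold lower S100a9 (−2.38 ± 0.33) than PBS-treated wild type lungs. Within the transgenic genotype the direction was the opposite, with S100a8 2.57-fold (1.36 ± 0.44) and S100a9 6.31-fold (2.66 ± 0.51) higher after HDM than after PBS. The size of this last difference depends on an adjustment for transcript length, with which it was 0.17 for S100a8 and 1.48 for S100a9 on the log2 scale. With 1 library left out it lay between 0.85 (without replicate 2 of TH) and 1.95 for S100a8, and between 2.08 and 3.16 for S100a9. The 2 genes did not keep one ratio, since S100a8 counts per S100a9 count were 0.979 and 1.11 in WP, 0.768 and 2.23 in WH, 3.03 and 2.78 in TP, and 1.26 and 1.17 in TH. The ratio was highest in the TP libraries and differed between the WH libraries, whose S100a9 levels were 2.06-fold apart.

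Csf3r encodes the receptor of granulocyte colony-stimulating factor, the main growth factor of neutrophils, and Cxcr2 the receptor through which CXCL1, CXCL2 and CXCL5 draw neutrophils out of blood. Csf3r (chromosome 4, 126023441 to 126044975) had 146 and 130 CPM in WP, 73.2 and 83.8 in WH, 71.3 and 92.5 in TP, and 61.3 and 52.4 in TH. WP was the highest and TH the lowest group, and WH and TP overlapped. Its log2 difference was −0.77 ± 0.18 for TP against WP, −0.82 ± 0.17 for WH against WP and −0.50 ± 0.26 for TH against TP, the last of which was −0.31 without replicate 2 of TP. Cxcr2 (chromosome 1, 74153994 to 74161246) had 151 and 130 CPM in WP, 88.3 and 96.2 in WH, 84.4 and 97.3 in TP, and 110 and 85.8 in TH. Again WP lay above the rest, and the other 3 groups overlapped. Its log2 difference was −0.64 ± 0.17 for TP against WP, −0.61 ± 0.17 for WH against WP and 0.13 ± 0.24 for TH against TP. The receptors thus differed less than the calgranulins between WP and the groups WH and TP. Of their whole transcripts, 11.5% (Csf3r) and 6.77% (Cxcr2) of all 50-base stretches also occur in another gene. Because reads were counted in coding regions, these percentages do not give the share of counts that may not be their own. Trem1, a receptor of myeloid cells that amplifies inflammatory signals (chromosome 17, 48232713 to 48246927), was low, with 51 and 45 counts in WP (5.13 and 3.68 CPM), 2 and 25 in WH, 6 and 20 in TP, and 12 and 7 in TH (means of 1.35, 1.36 and 1.17 CPM). Both WP libraries were above the rest, and WH, TP and TH overlapped. The log2 differences of Trem1 against WP, −1.71 ± 0.88 for TP and −1.71 ± 1.03 for WH, rested on single libraries. They came to −1.05 without replicate 1 and −2.85 without replicate 2 of TP, and to −0.81 without replicate 1 and −4.55 without replicate 2 of WH.

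Ngp encodes neutrophilic granule protein and Camp the antimicrobial cathelicidin, both of secondary granules. Ngp lies on chromosome 9 at 110419808 to 110423012 and Camp on the same chromosome at 109847377 to 109849456. The region upstream of Ngp is shown because it held both of the TTGCNNAA matches that are not in S100a9, at 138 and 11 bases before the start (chr9:110419558-110419807, plus strand, RefSeq GRCm38.p6, matches in capitals).
Ngp: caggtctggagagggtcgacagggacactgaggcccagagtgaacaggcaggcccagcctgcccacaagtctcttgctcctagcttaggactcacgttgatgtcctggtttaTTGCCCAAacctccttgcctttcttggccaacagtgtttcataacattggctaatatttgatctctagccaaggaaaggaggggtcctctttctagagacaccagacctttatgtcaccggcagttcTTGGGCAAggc
Ngp had 102 and 41 counts in WP (10.3 and 3.35 CPM), 13 and 8 in WH (1.16 and 0.804 CPM), 0 and 1 in TP, and none in TH. WP was high, WH low, and both transgenic groups were at or below the limit that a count of 0 allows, although the WP libraries themselves were 3.06-fold apart. With the mean of the WP libraries taken against 3 counts per library, Ngp was at least 22.1-fold lower in TP than in WP. This bound does not cover the spread between the WP libraries. For WH against WP the log2 difference of Ngp was −2.77 ± 0.85 (−1.76 without replicate 1 of WP). Camp had 9 and 27 counts in WP (0.905 and 2.20 CPM), 0 and 7 in TH, and none in WH and TP. By the mean of the WP libraries, Camp was at least 5.04-fold lower in TP and at least 5.46-fold lower in WH than in WP. The WP libraries were 2.44-fold apart for Camp, which these bounds do not cover either.

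The primary granule genes Mpo (chromosome 11, 87793784 to 87804412) and Elane (chromosome 10, 79886312 to 79888216) encode myeloperoxidase and neutrophil elastase. Mpo had no count in any of the 8 libraries, and Elane had 2 counts in WP replicate 2 and none elsewhere. Prtn3, the proteinase 3 gene of the same granules, had 6 counts in WH replicate 1, 2 and 4 counts in TH, and none in the other libraries. No difference between groups could be detected at this depth for Mpo and Elane.

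Stfa2l1 encodes a stefin, a family of inhibitors of cysteine proteases expressed in mouse neutrophils, and lies on chromosome 16 at 36156811 to 36161948 in a cluster of near copies. Of its 50-base stretches 24.6% occur in another gene, mainly Stfa2 (16.8%), and its coding sequence is identical to that of Stfa2 at 298 of 309 bases (96.4%) and to that of Stfa3 at 252 (81.6%). The first 60 coding bases of GENCODE M21 show where reads of the copies can be told apart, with capitals for bases that differ from Stfa2l1 (5 in Stfa2 and 9 in Stfa3).
Stfa2l1: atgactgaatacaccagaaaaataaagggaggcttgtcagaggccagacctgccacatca
Stfa2: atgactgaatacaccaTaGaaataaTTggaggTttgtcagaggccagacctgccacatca
Stfa3: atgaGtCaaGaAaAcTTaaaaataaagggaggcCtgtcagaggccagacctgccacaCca
Because of these shared stretches the counts of Stfa2l1 are uncertain. It had 38 and 268 counts in WP (3.82 and 21.9 CPM), 1.70 and 2.51 CPM in WH, 4.29 and 0.423 CPM in TP, and 1.95 and 2.71 CPM in TH. The WP libraries, from 1 RNA pool, were 5.73-fold apart and the TP libraries 10.2-fold apart, and the lower WP library lay below the higher TP library. Stfa2 split between the WP libraries in the same way, with 15 and 89 counts, and Stfa1 had 5 and 30 counts, while Stfa3 had 2 counts in WP replicate 1 and none elsewhere. Stfa2l1 counts per Stfa2 count lay between 2.53 and 5 in the 7 libraries where Stfa2 was counted. The log2 difference of Stfa2l1 was −2.44 ± 0.85 for TP against WP, with overlapping libraries, −2.61 ± 0.76 for WH against WP and 0.01 ± 1.16 for TH against TP. None of the 3 was stable. Without replicate 2 of WP the differences against WP were −0.70 for TP and −0.87 for WH. Without replicate 1 of TP, TP against WP was −4.89 and TH against TP was 2.44, and without replicate 2 of TP they were −1.58 and −0.86.

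Levels of different genes were compared per kb of transcript. The length was that of the whole transcript, while the authors counted reads in coding regions. The order between genes therefore holds on this scale only and could differ per kb of coding sequence. In WP, S100a8 (142 CPM per kb) and S100a9 (127) had the highest values on this scale, above Cxcr2 (46.1), Csf3r (39.7), Stfa2l1 (30.7), Ngp (5.57), Camp (2.05) and Trem1 (1.47). In TP this order changed, as S100a9 (9.32 CPM per kb) lay below both Cxcr2 (29.8) and Csf3r (23.5), and S100a8 stood at 29.3 CPM per kb. In TH, S100a8 (74.3) and S100a9 (58.1) were on this scale again above Cxcr2 (32.1) and Csf3r (16.3) by their means. S100a9 stood at 39.0 and 77.3 CPM per kb in its 2 libraries against 36.0 and 28.2 for Cxcr2. Log2 differences between TH and TP fell with transcript length across genes (Spearman correlation −0.331 over 14352 genes). Both calgranulin transcripts are shorter than those of the 2 receptors. With the adjustment for length given above, both calgranulins rose less from TP to TH, so their order in TH may depend on it. The order with that adjustment was not tested.

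The HDM-treated genotypes were compared to ask whether DDAH1 overexpression altered these genes in allergen-exposed lungs. None of the 6 neutrophil marker genes with enough counts passed the test (edgeR quasi-likelihood, Benjamini-Hochberg adjustment over 15191 genes), where 2.44% of all genes did. DESeq2 also called 0 of them, where it called 922 of 15191 genes. Its adjusted p-values were 0.0559 for S100a8 and 0.0949 for S100a9, and it gave none for Trem1 and Stfa2l1. S100a8 and S100a9 had an unadjusted p under 0.05 and were higher, as were 9.37% of all genes. S100a8 was 2.36-fold higher in TH than in WH (log2 1.24 ± 0.40 SE, edgeR adjusted p = 0.143), and S100a9 was 2.45-fold higher (1.29 ± 0.47, edgeR adjusted p = 0.195), both with the 2 TH libraries above the 2 WH libraries. Both differences moved with single libraries. Without replicate 1 of TH they were 1.59 (edgeR adjusted p = 0.0142) and 1.69 (adjusted p = 0.0197), and without replicate 2 of TH they were 0.75 (adjusted p = 0.397) and 0.73 (adjusted p = 0.463). Without replicate 1 of WH they were 0.99 (adjusted p = 0.564) and 1.89 (adjusted p = 0.372), and without replicate 2 of WH 1.51 (adjusted p = 0.383) and 0.87 (adjusted p = 0.636). With no filter on low counts the edgeR adjusted p-values were 0.0373 and 0.0499, in a fit that called 1055 of 18554 genes. With an adjustment for transcript length, on the other hand, they were 0.45 (adjusted p = 0.623) and 0.49 (adjusted p = 0.694), as log2 differences between TH and WH fell with transcript length across genes (Spearman correlation −0.281 over 14455 genes, which are not independent replicates).

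The other neutrophil marker genes gave smaller or less certain differences under HDM. For Csf3r the log2 difference between TH and WH was −0.43 ± 0.25 (edgeR adjusted p = 0.435), and for Cxcr2 it was 0.12 ± 0.23 (adjusted p = 0.850). Trem1 (−0.18, adjusted p = 0.970) and Stfa2l1 (0.19, adjusted p = 0.957) had standard errors above 1, larger than their differences. Ngp was at least 2.88-fold lower in TH, where it had no count, than in WH, and was below the count filter of the test. The median of the 6 tested genes was 0.15 on the log2 scale, and that of all genes was 0.01. In the described comparisons the medians were −2.36 over 8 genes for TP against WP, −2.26 over 8 genes for WH against WP and 0.07 over 6 genes for TH against TP, beside 0.00, 0.02 and 0.03 for all genes. For the other neutrophil genes listed below, the medians were −0.89, 0.31 and 1.33 in these comparisons, and 0.17 for TH against WH. Without overlap between the libraries, 2 of the 10 genes were higher and 2 lower in TH than in WH, where 23.2% and 25.0% of all genes were. For TP against WP 7 genes were lower and 0 higher (20.4% and 20.0% of all genes), for WH against WP 8 were lower and 0 higher (24.7% and 25.0%), and for TH against TP 1 was lower and 2 were higher (28.0% and 28.8%), from which nothing is read for the described comparisons. Single libraries moved the medians, to 0.69 for TH against WH without replicate 2 of WH, to −3.58 for TP against WP without replicate 1 of TP, and to 0.99 and 0.59 for TH against TP without replicate 1 and replicate 2 of TP. The comparisons of TP and of WH share the WP libraries, so their likeness is not independent.

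**Figure D2:**
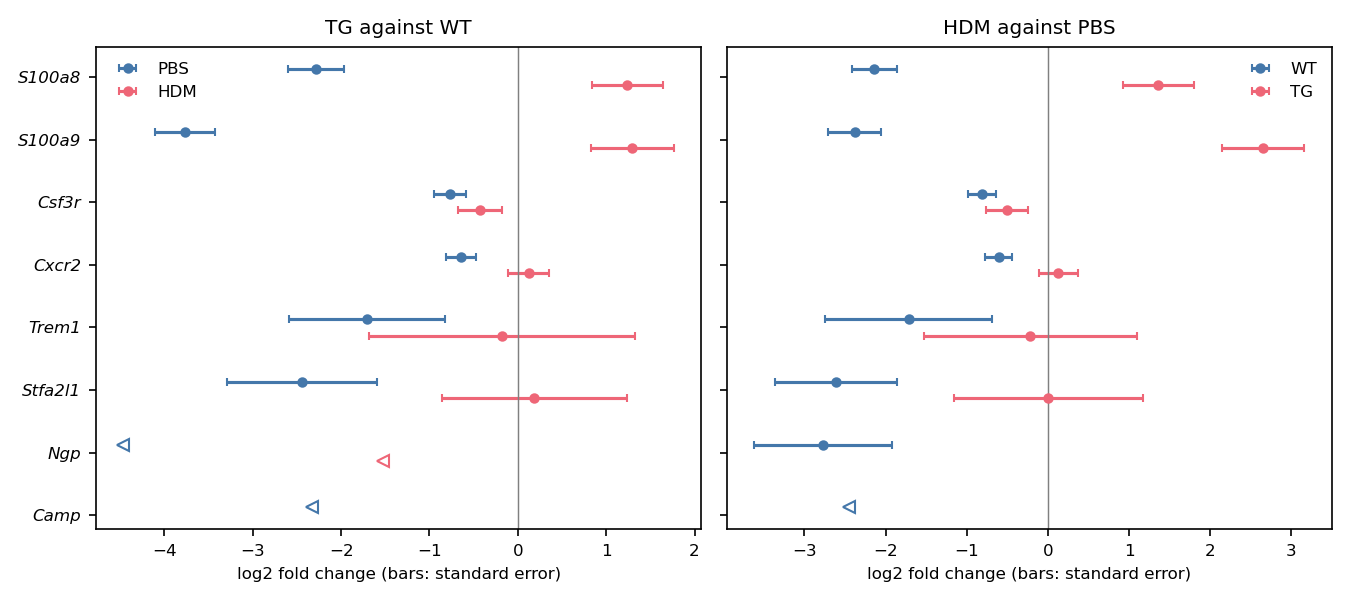
Log2 fold change (x axis) of 8 neutrophil marker genes between genotypes (left, TG being DDAH1-transgenic and WT wild type) and between treatments (right), with bars for the standard error of edgeR. Open triangles are lower bounds of the mean of the other group against 3 counts per library. S100a8 and S100a9 lie at −2.28 and −3.77 between genotypes under PBS and at 1.24 and 1.29 under HDM.

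Of 83 further genes of the neutrophil programme, listed by role with earlier results of these data known, 80 had a row in the count table, and Ly6g, the gene of the Gr-1 antigen, was not analysed here. Many of them are also expressed by macrophages, monocytes or airway epithelium. Between PBS-treated genotypes, 14 of 68 genes were lower in TP past the threshold of edgeR and none higher, where 0.375% of all genes were lower and 0.281% higher (0.657% in either direction). All 14 are on the list that the study made from the same libraries, so the count is no independent evidence and the values are given as a description. The 14 included 7 of 21 receptors and surface proteins, 3 of 12 granule genes, 2 of 7 ligands, 1 of 6 oxidase subunits and none of 3 stefins, and without replicate 1 of WP 6 genes were past the threshold. Clec4e, the lectin receptor Mincle, stood at 38.9 ± 3.09 CPM (SD, n = 2 libraries) in WP and 1.40 ± 0.710 CPM in TP (log2 −4.80 ± 0.45 SE). Cxcl2, which encodes a ligand of CXCR2, stood at 24.5 ± 0.593 and 0.579 ± 0.677 CPM (−5.41 ± 0.66), and Il1b, which encodes interleukin-1β, at 43.9 ± 0.811 and 5.87 ± 1.58 CPM (−2.91 ± 0.35). Lcn2, the gene of the iron-withholding granule protein lipocalin 2, had a difference of −1.07 ± 0.15. The ligand gene Cxcl5 (−0.79 ± 0.30, edgeR adjusted p = 0.355) and the stefin gene Stfa2 (−2.73 ± 1.09, adjusted p = 0.382) did not pass.

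HDM-treated and PBS-treated wild type lungs differed in both directions, with 13 of 68 genes higher and 7 lower in WH, where 4.44% and 2.3% of all genes were (6.74% in either direction). At an unadjusted p under 0.05 there were 35. Of the 20, 8 are on the study's lists of genotype differences, which share the WP and WH libraries. All were listed with earlier results of these data known, so the counts and adjusted p-values are a description and no independent evidence. Genes that rose included Chil3, which encodes a chitinase-like protein of macrophages and neutrophil granules (log2 4.59 ± 0.08 SE, edgeR adjusted p = 8.70e-14), the antiprotease gene Slpi (2.47 ± 0.16, adjusted p = 3.20e-07), Lcn2 (1.95 ± 0.13, adjusted p = 2.84e-07) and the integrin gene Itgb2 (1.53 ± 0.16, adjusted p = 2.81e-05). The granule gene Cd177 also rose (1.39 ± 0.36, adjusted p = 0.0340), at 13.3 CPM in WP, 34.9 in WH, 0.993 in TP and 37.5 in TH. Of 12 granule genes tested, 3 were higher and 2 lower in WH. Those that fell included Clec4e (−3.03 ± 0.40, adjusted p = 0.000298), Ppbp, which encodes the platelet chemokine CXCL7, also a ligand of CXCR2 (−2.10 ± 0.24, adjusted p = 7.49e-05), Hp, which encodes haptoglobin (−1.04 ± 0.15, adjusted p = 0.000650), and the lysozyme gene Lyz2 (−0.43 ± 0.06, adjusted p = 0.000774). Of the other CXCR2 ligand genes, Cxcl1 was at 1.94 ± 1.05 (adjusted p = 0.330), Cxcl2 at −1.16 ± 0.37 (adjusted p = 0.0799), Cxcl3 at 1.90 ± 0.64 (adjusted p = 0.103) and Cxcl5 at 0.35 ± 0.27 (adjusted p = 0.535), none of them past the threshold. Cxcr1, the sister receptor of Cxcr2, had 4 and 8 counts in WP and at most 3 in any other library.

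In transgenic lungs, 31 of 64 genes were higher and 1 was lower after HDM than after PBS, where 8.43% and 5.35% of all genes were (13.8% in either direction). At an unadjusted p under 0.05 there were 41. Log2 differences between TH and TP fell with transcript length across genes (Spearman correlation −0.331 over 14352 genes). With an offset for transcript length, the 2079 calls over all genes (1272 higher, 807 lower) became 1436 (724 higher, 712 lower). The counts below are from the fit without that offset. Of the 32, 18 are on the study's lists of genotype differences, which share the TP and TH libraries. Some of them, such as Slpi, Cybb and Cxcl2, are listed as low in TP. The counts and adjusted p-values here are therefore a description and no independent evidence. The 31 comprised 13 of 19 receptors, 5 of 6 oxidase subunits, 4 of 12 granule genes, 3 of 7 ligands and 6 of 14 further genes. Without replicate 1 or without replicate 2 of TP, 15 genes rose and 1 fell. Slpi went from 20.6 ± 0.620 CPM (SD, n = 2 libraries) in TP to 684 ± 135 CPM in TH (log2 5.07 ± 0.22 SE, edgeR adjusted p = 1.03e-07). Cybb, the gene of the catalytic subunit of the phagocyte oxidase, went from 99.2 ± 3.33 to 517 ± 27.5 CPM (2.41 ± 0.19, adjusted p = 1.42e-05). Chil3 also rose (2.93 ± 0.17, adjusted p = 9.15e-07). Of the CXCR2 ligand genes, Cxcl3 had 0 and 1 counts in TP and 248 and 407 counts in TH and was at least 111-fold higher (adjusted p = 2.08e-05), Cxcl2 rose (4.64 ± 0.90, adjusted p = 0.00577) and Ppbp fell (−2.76 ± 0.30, adjusted p = 0.000116), while Cxcl1 (3.02 ± 1.36, adjusted p = 0.170) and Cxcl5 (0.83 ± 0.39, adjusted p = 0.188) did not pass.

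Between HDM-treated genotypes, 4 of 67 genes were higher and 1 was lower in TH, where 1.84% and 0.599% of all genes were. All 5 are on the study's list for this comparison of the same libraries, so they too are given as a description. The 4 higher genes were Fpr2, a receptor for formylated peptides (log2 2.72 ± 0.50 SE), the CXCR2 ligand gene Cxcl3 (2.01 ± 0.38), the signalling adaptor gene Tyrobp (1.55 ± 0.27) and Slpi (1.12 ± 0.19). Chil3 was lower, at 9083 ± 223 CPM (SD, n = 2 libraries) in WH and 3820 ± 780 CPM in TH (−1.21 ± 0.14). Without replicate 1 or replicate 2 of WH none of the 5 was past the threshold, but the differences moved little, to −1.26 and −1.18 for Chil3, 0.97 and 1.27 for Slpi, 1.30 and 1.83 for Tyrobp, 2.93 and 2.54 for Fpr2, and 1.99 and 2.02 for Cxcl3. The calls of the 4 higher genes were also lost with the adjustment for transcript length, and 13 genes were called without replicate 2 of TH. Of the other CXCR2 ligand genes, Cxcl1 (0.42 ± 1.03, edgeR adjusted p = 0.892), Cxcl2 (0.43 ± 0.49, adjusted p = 0.724), Cxcl5 (−0.28 ± 0.36, adjusted p = 0.756) and Ppbp (−0.39 ± 0.40, adjusted p = 0.681) did not pass.

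The genotype effect itself was compared between HDM and PBS in a fit of all 8 libraries. The fit had no adjustment for transcript length, along which the log2 differences of TH from WH and from TP fell. Past the threshold of edgeR, 11 of 71 genes had a more positive genotype effect under HDM and 1 a more negative one, where 1.05% and 0.706% of all genes did (1.76% in either direction). All 12 are on one of the study's lists of genotype differences in these libraries, so the values are a description and no independent test. The log2 difference of the effects was 2.58 ± 0.25 (SE) for Slpi, 6.63 ± 0.73 for Clec4e, 7.18 ± 1.00 for Cxcl3 and 5.78 ± 0.87 for Cxcl2. For Chil3 it was −1.68 ± 0.17. Cxcl3 had 0 and 1 counts in TP, so its fitted value depends on the prior count. No interaction is given for S100a8 and S100a9, whose PBS values entered the choice of genes.

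**Figure D3:**
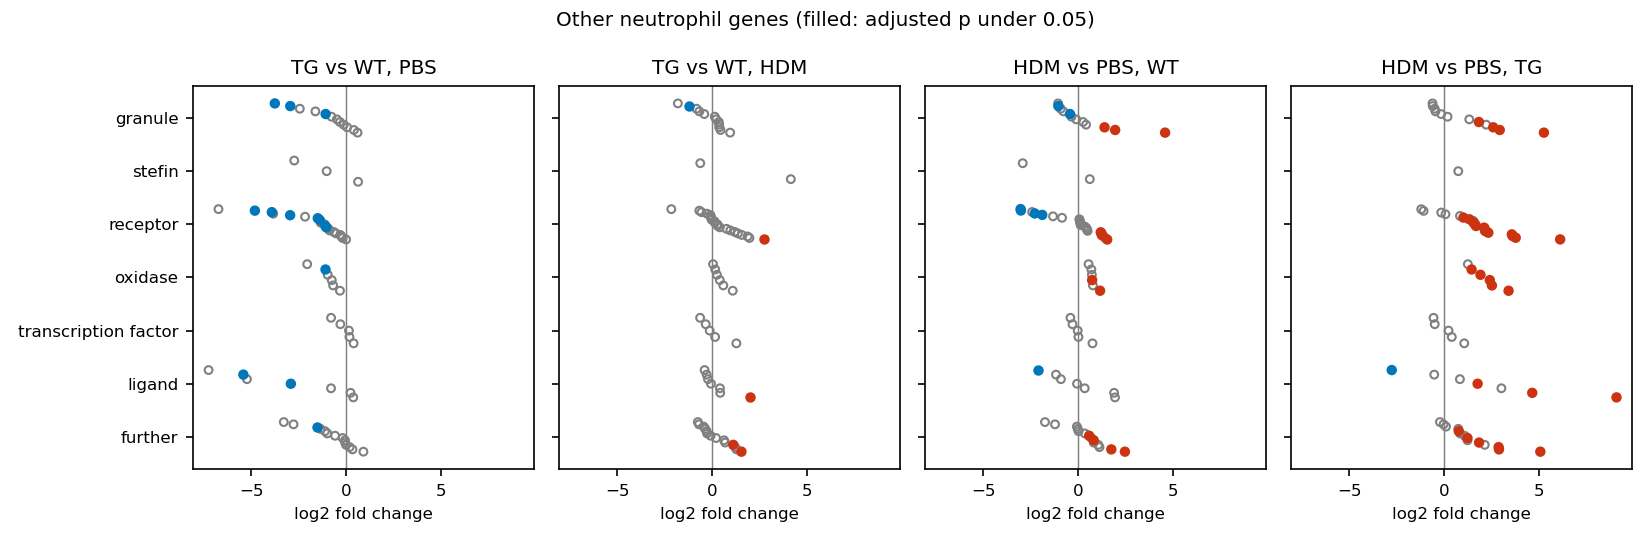
Log2 fold change (x axis) of the other neutrophil genes that were tested, by role (rows), in the 4 comparisons, with filled points (red higher, blue lower) for an edgeR adjusted p under 0.05. Filled points are all blue between genotypes under PBS (14 genes) and nearly all red for HDM against PBS in transgenic lungs (31 of 32 genes).

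Markers of other cells moved with several of these genes. The summed level of 10 thymocyte markers was 167 to 176 CPM in WP, 88.2 to 108 CPM in WH, 58.8 to 61.6 CPM in TP and 79.6 to 86.1 CPM in TH, an order in which WP was the highest group, as it was for the neutrophil marker genes. Of the defining thymocyte markers, Rag1 and Dntt had no count in WH and Dntt had none in TP. The 12 skeletal muscle markers had the opposite pattern, at 43.3 to 46.6 CPM in WP, 222 to 231 in WH, 286 to 301 in TP and 156 to 166 in TH. The part of these tissues in the results was not tested. The 12 macrophage markers stood at 311 to 361 CPM in WP and 273 to 326 CPM in TP, against 775 to 949 CPM in WH and 702 to 841 CPM in TH, and 6 of 12 rose in WH and 9 of 12 in TH relative to PBS. The 8 monocyte markers likewise stood at 256 to 299 CPM in WP, 194 to 198 in TP, 380 to 382 in WH and 358 to 403 in TH. Since Chil3, Cybb, Itgb2, Tyrobp and Lyz2 are also genes of these cells, the share of neutrophils in their changes was not tested. The 10 eosinophil markers were at 99.1 to 116 CPM in WP, 118 to 129 in TP, 263 to 268 in WH and 189 in TH, with Epx and Prg3 at 0 in all but TH. The 7 erythroid markers, genes of red blood cells, were at 6269 to 7394 CPM in WP, 10594 to 11855 in TP, 2521 to 3238 in WH and 2901 to 4167 in TH, so that TP, with low neutrophil marker genes, had the highest erythroid level. All 8 markers of lung epithelium and endothelium were detected in every group, with sums of 42628 to 50093 CPM in WP, 51001 to 73679 in TP, 22087 to 25762 in WH and 21558 to 30359 in TH.

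**Figure D4:**
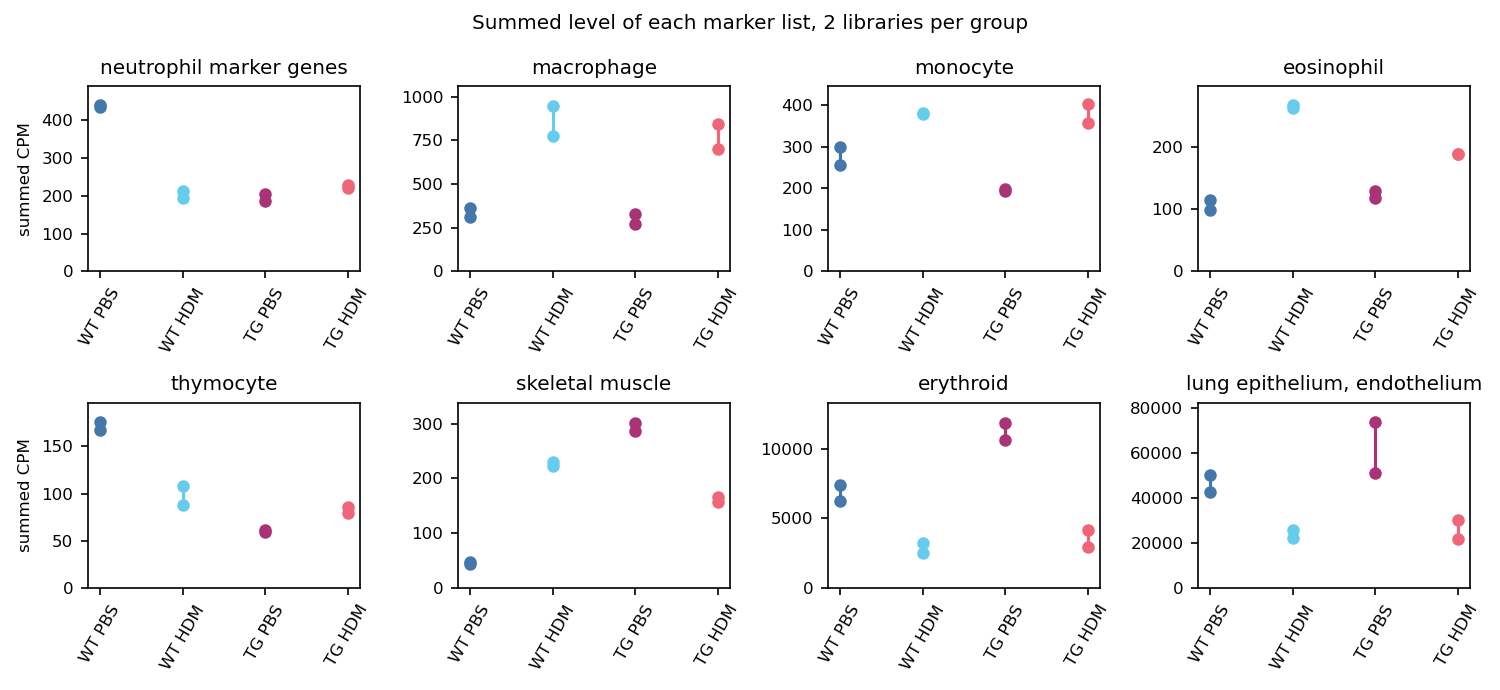
Summed CPM (y axis, linear, own scale per panel) of the neutrophil marker genes and of 7 marker lists in the 4 groups (x axis), with 1 point per library. The neutrophil and thymocyte sums are both highest in WP (436 to 442 and 167 to 176 CPM), and the macrophage sum is highest in the HDM groups.

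Genes with the most similar pattern were sought by Pearson correlation with the mean centred log2 CPM of the 7 neutrophil marker genes with at least 50 counts, over the 8 libraries and 15621 genes. They were Gad1 (r = 0.953), Tcf7 (0.949), Acsl1 (0.939), Rag1 (0.931), Cltb (0.931) and Trim30b (0.927). Tcf7, a transcription factor gene of T cells, and Rag1, the recombinase gene of developing lymphocytes, are on the thymocyte list, and Rag1 had 19.0 and 30.3 CPM in WP and at most 1.05 CPM in any other library. The 8 points are 4 pairs of libraries that share their mice, and the correlations are descriptions. Each neutrophil marker gene correlated with the mean of the other 6 at r between 0.527 (Trem1) and 0.862 (Cxcr2).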

How the data were processed

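RNA-Seq was done on lung RNA of 4 groups of mice (PBS or HDM, wild type or DDAH1-transgenic), pooled from 4 mice per group and analyzed in 2 libraries per group. The RNA was amplified and read from one end, and the authors used TopHat with the mm10 genome and counted the reads that fell in coding regions of genes. The submitters' processing notes also name bcl2fastq, CASAVA 1.8 and DESeq. The strandedness of the counting and the TopHat version are not given in the sources used here. The counts they deposited are raw counts per Entrez gene, and nothing in them was normalized. Total counts of 5694928 to 11929374 per library set the precision. Groups and replicate numbers were taken from the sample titles, and nothing says that equal numbers mark a shared batch.

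Gene names (23372 of 23469 identifiers) and positions came from RefSeq GRCm38.p6, and transcript lengths (21146 genes) from GENCODE M21. Each comparison was tested on its own 4 libraries with edgeR 4.0.16 in R 4.3.3 (quasi-likelihood test, TMM normalization, filterByExpr with a count minimum of 10), and the interaction on all 8 libraries. The Benjamini-Hochberg adjustment covered every gene tested, with a threshold of 0.05. The standard error is the log2 fold change divided by the square root of F. Levels are CPM with all 8 libraries scaled together. A fold against a group with 3 or fewer counts in both libraries is a bound, computed with 3 counts per library as the level of that group. The other group enters by its mean, so the bound does not cover the spread between the libraries of that other group. On simulated counts, 97.9% to 100% of 4-fold changes and 24.8% to 36.8% of 2-fold changes were recovered. The simulation gave every gene the same fixed dispersion and changed only genes above the count minimum. It therefore does not give the recovery for noisier or low genes of these data. Stfa2, for example, was 6.62-fold lower in TP than in WP and did not pass. The 2 libraries of each group differed beyond sampling noise and were kept as 2.

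Of the other neutrophil genes, the text names up to 4 per direction and comparison with the smallest adjusted p among those called, and always Stfa1, Stfa2, Stfa3, Cxcr1, Prtn3, Cxcl1, Cxcl2 and Cxcl5. Cd177 is named in addition, for its order of groups. The neutrophil marker genes, the gene lists and these rules were chosen with earlier results of these data known. The alternatives were size factors of RLE, DESeq2 1.42.0, testing without the filter on low counts, a block for the replicate number, an offset for transcript length (loess, span 0.5) alone or with the block, library sizes without Rn45s and haemoglobin genes, a fit on all 8 libraries, and each library left out in turn.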

Additional observations from a re-analysis of the deposited data

Results flagged for a closer look

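For 9 neutrophil genes outside the 10 marker genes that the naming rule chose, and for Cd177, the genotype effect (DDAH1-transgenic against wild type) differed between HDM and PBS. These passed the threshold of edgeR's interaction test, as did 1.76% of all genes. All of them are on the study's lists of genotype differences in these libraries, so this is no independent evidence. As log2 differences of the 2 effects, these were 6.63 for Clec4e, 5.78 for Cxcl2, 7.18 for Cxcl3, 1.22 for Cybb, 3.804 for Fpr2, 2.65 for Il1b, 2.58 for Slpi, 2.49 for Tyrobp and −1.68 for Chil3. For Cd177 the value was 3.84. The effects of S100a8 and S100a9 had opposite directions, with all TP libraries below the WP libraries, and all TH libraries above the WH libraries by 1.24 and 1.29 on the log2 scale. Under HDM neither gene passed the test (edgeR adjusted p = 0.143 and 0.195), and with the length offset the differences were 0.45 and 0.49. Of all genes, 23.2% were higher in TH than in WH without overlap between libraries. The difference between the effects under PBS and HDM was not tested. HDM and PBS groups also differ in Xist and Ddx3y, so that these differences cannot be told apart from sex.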

How the results depend on the processing

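Directions of the neutrophil marker genes against WP held under all alternatives run. The medians of the neutrophil marker genes lay, over fits with 1 library left out, between −3.58 and −1.93 for TP against WP, −2.48 and −1.94 for WH against WP, −0.084 and 0.69 for TH against WH, and 0.058 and 0.99 for TH against TP. With the length offset the last 2 were −0.02 and −0.14. Between TH and WH the direction of 3 uncalled genes turned. Cxcr2 ranged from −0.084 (without replicate 1 of TH) to 0.30 with 1 library left out. Trem1 came to 0.35 with the replicate block, 0.34 with block and length offset, 0.47 without replicate 2 of TH, and from −1.27 to 2.66 (without replicate 2 of WH) with 1 library left out. Stfa2l1 came to −0.62 with the length offset, −0.62 with offset and block, −0.061 without replicate 2 of TH, and from −0.087 (without replicate 1 of WH) to 0.50 with 1 library left out. S100a8 and S100a9 were called (2 of 8 genes) with no low-count filter, where 1055 of 18554 genes were called over all genes. Without replicate 1 of TH their log2 differences were 1.59 and 1.69.

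Of the other neutrophil genes, calls between TH and WH numbered 8 with DESeq2, 10 with no filter, 3 with the length offset (0 higher, 3 lower) and 0 to 13 with 1 library left out, against 5. Those between TP and WP ranged from 6 to 21 with 1 library left out, those between WH and WP from 15 to 26, those between TH and TP from 16 to 32, and those of the interaction from 10 to 17, with 19 for the interaction with no filter.

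Over all genes, the 370 calls between TH and WH (279 higher, 91 lower) became 922 with DESeq2 (590 higher, 332 lower), 1055 with no filter, 164 with the length offset (90 higher, 74 lower) and 771 (440 higher, 331 lower) in the fit of all 8 libraries, and 6 (without replicate 1 of WH) to 1595 (without replicate 2 of TH). The 98 between TP and WP became 223 with DESeq2, 306 with no filter and 75 to 432 with 1 library left out. The 1020 between WH and WP became 1588 with no filter and 652 to 1661 with 1 library left out, and the 2079 between TH and TP ranged from 277 to 2676. The cause of these changes was not tested.

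Over all genes together, libraries with equal replicate numbers did not deviate together (correlations of −0.018 to 0.041 between groups). Such correlations cannot show whether equal numbers mark a batch that acts on part of the genes, and this was not tested. With the replicate number as a block, 625 genes were called between TH and WH, 46 between TP and WP, and 5 other neutrophil genes between TP and WP against 14. Depth limits Mpo, Elane, Camp and Ngp, for which counts were near 0 in most libraries. Where a library was left out, the lone library of its group is assumed to vary like those of the other group.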
